A study of Rattus norvegicus with 6 samples.

Results

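Selenoproteins carry the amino acid selenocysteine, and 10 of their genes were followed in rat liver: Gpx1, Gpx3, Gpx4, Txnrd1, Txnrd2, Dio1, Msrb1, Selenop, Selenow and Selenok. They were chosen by gene symbol, all 10 were found among the 25926 features of the deposited table, and all 10 passed a minimum mean over the rats of 1 FPKM, a level scaled by transcript length and by the mapped fragments of the library. The choice was made with values of the same comparison known, so the differences between the groups are described for these genes and no p-value is given. The question set for them was whether the genes most sensitive to selenium were lower together.

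The liver RNA came from Sprague-Dawley rats, labelled 4 weeks old. The 3 control rats received 0.9% saline for 7 days. The 3 TPN rats received total parenteral nutrition, which is feeding by infusion into a vein, also for 7 days. The TPN rats carry the disease label PNALD (parenteral nutrition-associated liver disease). No genetic change is named for either group, and the labels state neither the selenium content of the infusion, nor the diet of the controls, nor the sex of the rats. The design text counts 3 control and 3 PNALD rats, so each sample is taken as 1 rat.

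Selenocysteine is inserted at a UGA codon, which otherwise ends translation, and this needs a stem-loop in the 3′ end of the mRNA, the binding protein SECISBP2, the elongation factor EEFSEC and a dedicated tRNA. When selenium is short, some selenoprotein mRNAs are degraded and others are kept, an order known as the selenoprotein hierarchy. In rodent liver the mRNAs of Gpx1, Selenow, Selenoh and Msrb1 are known as sensitive, those of Dio1 and Selenok were placed with them here, and those of Gpx4, Txnrd1, Txnrd2 and Selenop are known to be better kept. Liver is also the main source of plasma selenoprotein P, the product of Selenop, which carries selenium to other organs.

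All 10 genes had at least 1 start-site window in the RefSeq promoter table of build GRCr8, with 14 windows in all, each running from 250 bases before to 50 bases after a start. A window is shown for Gpx1, the gene with the widest difference between the groups, for Msrb1, a gene of the same selenium-sensitive set that lay on the other side of 0, and for Txnrd1, a known target of the antioxidant transcription factor NRF2. They lie at chr8:117905212-117905511 on the plus strand, chr10:14269164-14269463 on the plus strand and chr7:22755855-22756154 on the minus strand, and each is written 5′ to 3′. Capitals mark a match on either strand to the GC box GGGCGG, or to the antioxidant response element core TGACNNNGC.
Gpx1: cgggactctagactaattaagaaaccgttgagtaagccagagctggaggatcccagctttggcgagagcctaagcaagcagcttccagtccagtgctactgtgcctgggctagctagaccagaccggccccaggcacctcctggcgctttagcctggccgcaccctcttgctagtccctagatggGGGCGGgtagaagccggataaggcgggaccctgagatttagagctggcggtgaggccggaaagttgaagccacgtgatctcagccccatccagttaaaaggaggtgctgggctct
Msrb1: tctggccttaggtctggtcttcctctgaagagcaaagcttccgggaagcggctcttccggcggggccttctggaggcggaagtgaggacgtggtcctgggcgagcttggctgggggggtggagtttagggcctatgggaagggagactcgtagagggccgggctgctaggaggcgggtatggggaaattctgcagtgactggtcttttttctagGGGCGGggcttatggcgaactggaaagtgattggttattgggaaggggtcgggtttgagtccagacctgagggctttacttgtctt
Txnrd1: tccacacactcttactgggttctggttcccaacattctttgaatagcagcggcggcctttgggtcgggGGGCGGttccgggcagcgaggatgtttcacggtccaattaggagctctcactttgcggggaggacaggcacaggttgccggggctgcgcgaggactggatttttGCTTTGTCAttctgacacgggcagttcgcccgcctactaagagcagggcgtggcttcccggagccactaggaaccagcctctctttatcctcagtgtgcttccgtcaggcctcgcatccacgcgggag
The GC box was found in 10 of the 14 windows and in 33.1% of 33469 windows of all genes. The 14 windows are not independent, since some of Gpx4 and of Selenop overlap. GC boxes in the shared stretch of Gpx4 were counted in each window that holds them. The antioxidant core was found in 2 of the 14, those of Txnrd1 shown here and of Selenok, and in 12.1% of all windows. The nuclear receptor half-site AGGTCA was in 2 of the 14 and in 16.2% of all windows, and the TATA box TATAAA in 2 of the 14 and in 14.2% of all. The matched letters of the 4 motifs do not overlap in the windows shown. A match describes these letters and shows no binding.

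Gpx1 encodes the cytosolic glutathione peroxidase, which reduces hydrogen peroxide, and its mRNA is the classic marker of selenium status. It measured 905, 399 and 654 FPKM in control 1, 2 and 3, and 219, 225 and 264 FPKM in TPN 1, 2 and 3. Every TPN rat lay below every control rat, and the TPN rats lay close together while the controls spread over more than a doubling. The means were 652 ± 253 FPKM in control and 236 ± 24.4 FPKM in TPN (SD, n = 3), a 2.76-fold lower level in TPN. The fitted difference on the log2(FPKM + 1) scale was -1.39 (SE 0.31), the widest among the 10 genes. It ran from -1.70 without control 2 to -1.11 without control 1, and was -1.65 with control 2 and TPN 1 both left out.

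Among the other 4 selenium-sensitive genes of the 10, the groups overlapped. Selenow encodes a small thioredoxin-like protein. It measured 32.4, 18.8 and 31.6 FPKM in the controls and 14.9, 32.8 and 16.1 FPKM in the TPN rats. TPN 1 and 3 lay below all controls and TPN 2 lay above all of them (log2 difference -0.41, SE 0.34). The difference was -0.21 without TPN 1 and -0.76 without TPN 2.

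Msrb1 encodes a methionine sulfoxide reductase that repairs oxidised proteins. It measured 50.6, 45.6 and 53.3 FPKM in control and 52.1, 54.2 and 59.1 FPKM in TPN, a narrow range in which the groups overlapped and the TPN mean was the higher (log2 difference 0.14, SE 0.16). Selenok encodes a protein of the endoplasmic reticulum membrane that takes part in protein palmitoylation. It measured 55.8, 42.2 and 54.1 FPKM in control and 58.04, 38.5 and 53.5 FPKM in TPN, with overlapping groups and means of 50.7 and 50.02 FPKM (log2 difference -0.03, SE 0.22).

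Dio1 encodes the deiodinase that activates and clears thyroid hormone in liver. It measured 80.9, 55.03 and 82.6 FPKM in control and 30.4, 106 and 115 FPKM in TPN. TPN 1 lay below all controls, while TPN 2 and TPN 3 lay above all of them. The TPN rats thus spread 3.79-fold from lowest to highest, and the fitted log2 difference of 0.01 (SE 0.50) hides this split. It was 0.62 without TPN 1 and -0.32 without TPN 3.

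Selenoh, a nucleolar thioredoxin-fold protein, belongs to the sensitive set but was not among the 10, so it was tested in the fit across all features. It measured 27.4, 28.4 and 27.7 FPKM in control and 22.8, 25.6 and 22.7 FPKM in TPN. The TPN rats lay below the controls by a small margin (log2 difference -0.23, SE 0.15, limma adjusted p = 0.614), which did not pass the threshold. Of the 6 sensitive genes, 4 had a negative log2 difference and 2 were lower without overlap, Gpx1 and Selenoh, with a median of -0.13. Over all 11362 features tested, 49.1% were negative, 9.09% were lower without overlap and the median was 0.0065. With 1 rat left out, 3 to 5 of the 6 were negative and the median ran from -0.27 without TPN 2 to -0.096 without control 1.

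**Figure D1:**
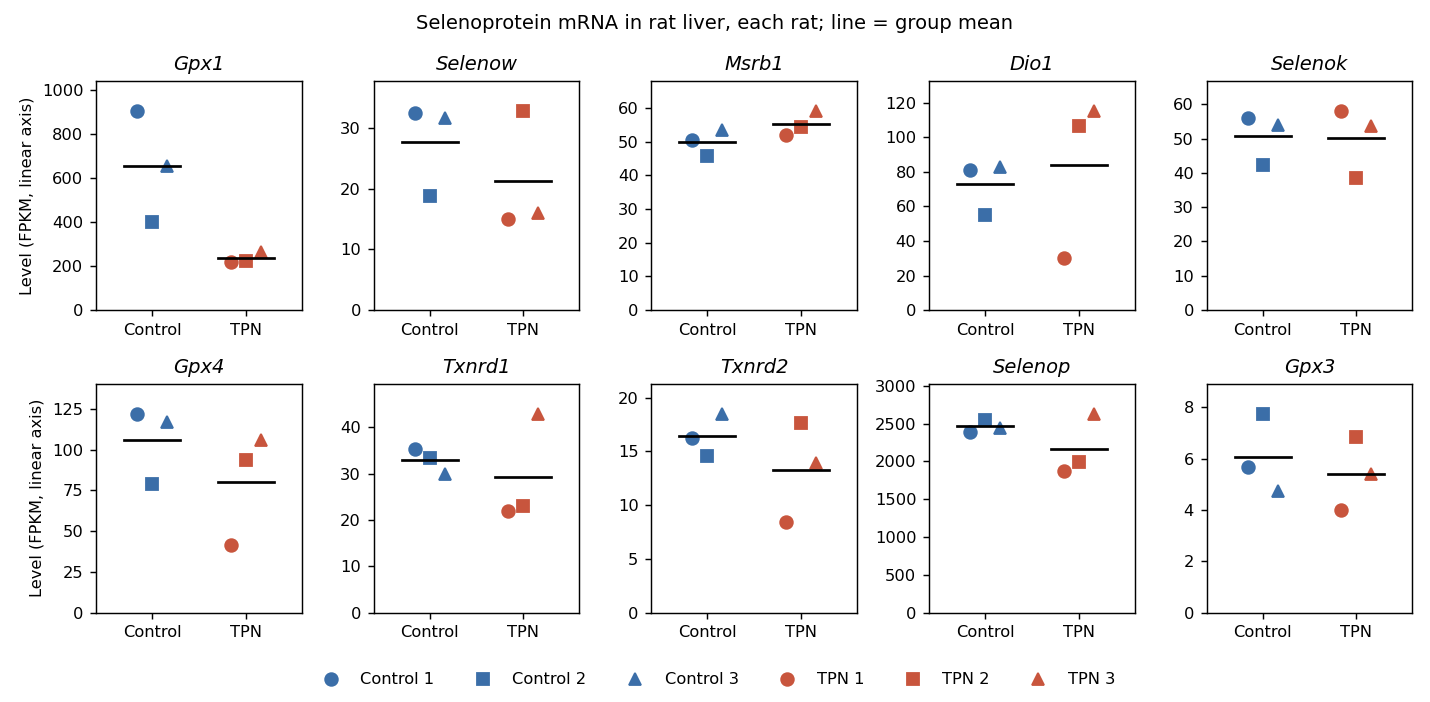
Level of each of the 10 selenoprotein genes in FPKM on linear axes that start at 0, with 1 point per rat (circle, square and triangle for rats 1, 2 and 3) and a line at the group mean. Gpx1 is the only panel in which the 3 TPN rats lie below all 3 controls, at 219 to 264 against 399 to 905 FPKM, and in the Dio1 panel TPN 1 lies below the controls with TPN 2 and TPN 3 above them.

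The genes whose mRNA is better kept under selenium shortage were also lower on average, without separating the groups. All 4 of them, Gpx4, Txnrd1, Txnrd2 and Selenop, had a negative log2 difference, against 49.1% of all features tested. Their median was -0.28, against -0.13 for the 6 sensitive genes. Without TPN 1 the 4 lay between -0.10 (Selenop) and -0.057 (Txnrd1), while the median of the 6 sensitive genes was -0.17. The order of the sets thus turned on that rat, and the genes were chosen on this comparison, so nothing is read from it. Gpx4 encodes the peroxidase of membrane lipid peroxides that protects cells from ferroptosis. It measured 122, 79.0 and 117 FPKM in control and 41.4, 93.5 and 106 FPKM in TPN (log2 difference -0.48, SE 0.37). TPN 1 was the low rat and the other TPN rats lay within the range of the controls. Without TPN 1 the log2 difference was -0.066.

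Txnrd1, the cytosolic thioredoxin reductase, measured 35.3, 33.3 and 29.97 FPKM in control and 21.9, 22.98 and 42.97 FPKM in TPN (log2 difference -0.23, SE 0.26). TPN 1 and 2 lay below all controls and TPN 3 above all of them. Txnrd2, the mitochondrial reductase, measured 16.3, 14.6 and 18.5 FPKM in control and 8.40, 17.6 and 13.9 FPKM in TPN (log2 difference -0.33, SE 0.26). TPN 1 and TPN 3 were below the controls and TPN 2 was among them. Without TPN 1 the log2 differences were -0.057 for Txnrd1 and -0.059 for Txnrd2.

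Selenop measured 2390.3, 2550.2 and 2448 FPKM in control and 1868, 1990 and 2634 FPKM in TPN. The controls lay within a narrow band, TPN 1 and TPN 2 lay below it and TPN 3 above it (log2 difference -0.20, SE 0.25). It was -0.10 without TPN 1 and -0.35 without TPN 3. Gpx3 encodes the peroxidase of plasma, which is made mainly in kidney. It was the least abundant of the 10, with 5.68, 7.76 and 4.75 FPKM in control and 3.98, 6.82 and 5.41 FPKM in TPN, and the groups overlapped (log2 difference -0.14, SE 0.22). Its sign changed without control 2 (0.023) and without TPN 1 (0.026).

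Of the 10 genes, 8 had a negative log2 difference, against 49.1% of all features tested, and 1 was lower without overlap, against 9.09%. None was higher without overlap, against 8.02%. None passed limma's adjusted p of 0.05, against 0.246% of all features (0.0264% higher and 0.22% lower), and 1 had an unadjusted p under 0.05, against 11.4%. These counts come from the comparison by which the genes were chosen, so nothing is read from them. The median log2 difference was -0.21. It was -0.063 without TPN 1 and -0.34 without TPN 3. With control 2 and TPN 1 both left out, 7 of the 10 were negative, with a median of -0.11.

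The rats within each group differed in the same direction for many of these genes. Control 2 was the lowest control in 7 of the 10 genes, against 51.6% of all features, and TPN 1 was the lowest TPN rat in 9 of 10, against 49.3%. Both held in 6 of 10 genes, against 31.6% of all features. These are the rats with the highest acute-phase score of their groups, which is the mean log2(FPKM + 1) of 13 plasma protein genes made during inflammation. Of those 13 genes, 10 had a positive and 3 a negative log2 difference. The score was 8.05, 10.2 and 8.37 in control 1, 2 and 3 and 11.4, 9.50 and 9.52 in TPN 1, 2 and 3. Over the 6 rats, Pearson's r with the score was negative for all 10 genes, from -0.94 for Gpx4 and -0.85 for Txnrd2 to -0.071 for Selenok. It was -0.80 for Gpx1 and for Selenow and -0.71 for Dio1. These values are a description over rats that fall into 2 groups, and the share of all features with a negative r was not counted. The part of the acute-phase response in the differences was not tested.

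**Figure D2:**
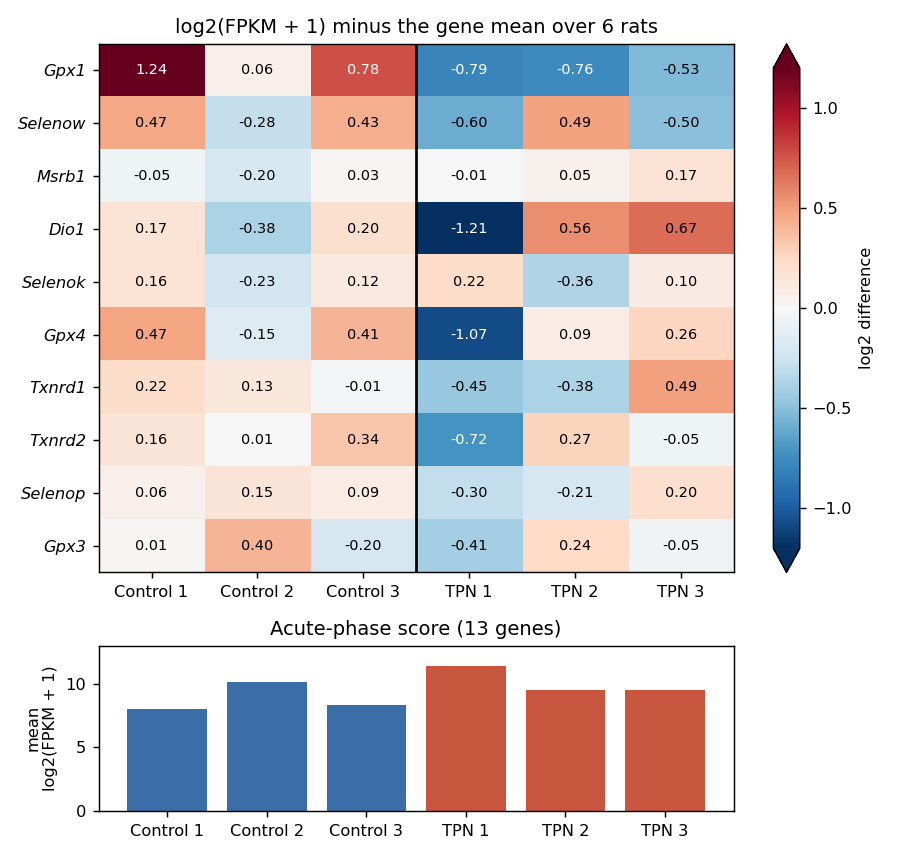
The upper panel shows log2(FPKM + 1) of each selenoprotein gene minus its mean over the 6 rats, in colour and in digits, and the lower panel shows the acute-phase score of each rat as a bar from 0. The TPN 1 column is negative in 9 of the 10 genes shown, with -1.21 for Dio1 and -1.07 for Gpx4, and Gpx1 is negative in all TPN rats and positive in all controls.

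FPKM divides by transcript length, so levels can be set in order across genes. In control liver the order of the means was Selenop, Gpx1, Gpx4, Dio1, Selenok, Msrb1, Txnrd1, Selenow, Txnrd2 and Gpx3. The ranges of neighbours overlapped for Gpx4 with Dio1, Dio1 with Selenok, Selenok with Msrb1 and Txnrd1 with Selenow. In TPN liver Dio1 stood before Gpx4 and Msrb1 before Selenok, and all neighbours overlapped except Selenop with Gpx1, Gpx1 with Dio1 and Txnrd2 with Gpx3. Gpx1 thus kept the second place in both groups.

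Summed over the 21 selenoprotein genes of the table, the level was 3961, 3492 and 3770 FPKM in the controls and 2589, 2847 and 3595 FPKM in the TPN rats. TPN 3 lay within the range of the controls, so the groups overlapped. Gpx1 made up 22.8%, 11.4% and 17.3% of that sum in control 1, 2 and 3, and 8.48%, 7.90% and 7.35% in TPN 1, 2 and 3. Its share was lower in every TPN rat. The share of Selenop was 60.3%, 73.04% and 64.9% in control and 72.2%, 69.9% and 73.3% in TPN, with overlap. Without Selenop and Gpx1 the remaining 19 genes summed to 626 ± 71.7 FPKM in the controls and 610 ± 99.9 FPKM in the TPN rats (SD, n = 3).

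**Figure D3:**
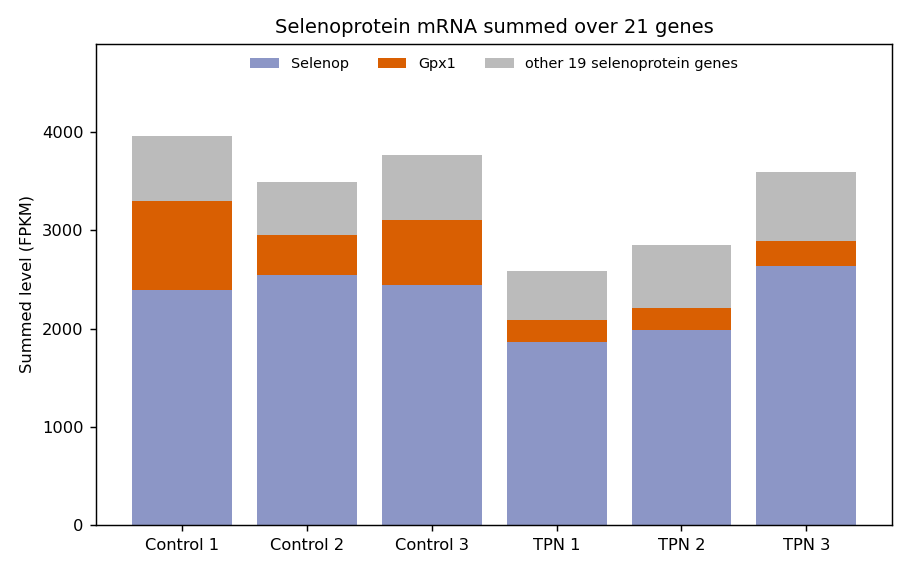
Stacked bars give, for each rat, the summed level of 21 selenoprotein genes in FPKM, split into Selenop, Gpx1 and the remaining 19 genes. The Gpx1 segment is 219 to 264 FPKM in the TPN rats and 399 to 905 FPKM in the controls, while the remaining genes sum to 501 to 698 FPKM in TPN and 543 to 668 FPKM in control.

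Gpx1 is abundant in red cell precursors as well as in hepatocytes, and the erythroid genes were lower in TPN liver. All 6 tested markers of that list were lower without overlap, against 9.09% of all features. Of these, 4 passed limma's threshold, against 0.246% of all features. Slc4a1 and Ahsp reached the minimum mean only through the controls, with TPN means of 0.42 and 0.33 FPKM, and neither was among the 4. Their summed level was 2125.5 to 2420.4 FPKM in control and 231 to 578 FPKM in TPN. By rat, the sum was 2129.3, 2125.5 and 2420.4 FPKM in control 1, 2 and 3 and 231, 578 and 404 FPKM in TPN 1, 2 and 3. Gpx1 measured 905, 399 and 654 FPKM and 219, 225 and 264 FPKM in the same order. Both were lower in every TPN rat than in every control. In bulk liver, fewer cells of a type and less RNA per cell cannot be told apart, and the part of erythroid RNA in the level of Gpx1 was not tested.

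The other cell type lists differed less or lay low. The 8 hepatocyte markers, which include albumin, summed to 46963 to 65999.5 FPKM in control and 28459 to 51637 FPKM in TPN, with 3 of 8 negative, so the tissue carried its defining markers. Kupffer cell and macrophage markers summed to 220.2 to 340 FPKM in control and 283 to 434 in TPN, with 6 of 7 positive. The stellate cell list summed to 109.6 to 181 FPKM in control and 69.6 to 101 in TPN, with 5 of 5 negative, and the cholangiocyte list to 10.6 to 13.9 and 6.34 to 8.10 FPKM, with 2 of 2 negative. Endothelial markers summed to 46.2 to 76.1 FPKM in control and 55.1 to 71.9 in TPN. Neutrophil markers reached at most 42.03 FPKM in sum, B cell markers 24.3, T and NK cell markers 3.79 and skeletal muscle markers 0.194, and the muscle genes Acta1, Mb and Myh2 were listed at 0 in all rats. The part of these cells in the selenoprotein levels was not tested.

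Outside the 10, the table held 11 selenoprotein genes, 10 of which reached the minimum mean. Selenov was listed at 0 in all rats. Dio2, Dio3 and Sephs2 were looked for, but no row was found under these symbols, so they could not be measured. Sephs2 is for this reason also missing from the synthesis genes below. Of the 10 tested, 6 had a negative and 4 a positive log2 difference, with a median of -0.14. None passed limma's adjusted p of 0.05, and 3 had an unadjusted p under 0.05. In 3 the TPN rats lay below all controls and in 2 above all controls. Over all features tested, 9.09% were lower and 8.02% higher without overlap, 49.1% were negative and 11.4% had an unadjusted p under 0.05, and these shares stand beside the counts of each further list.

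Both genes with TPN rats above the controls encode proteins of the endoplasmic reticulum. Selenos, part of the machinery that removes misfolded proteins, measured 14.8, 17.2 and 18.1 FPKM in control and 21.95, 21.2 and 26.4 FPKM in TPN. Each TPN rat exceeded each control (log2 difference 0.45, SE 0.17, limma adjusted p = 0.372). Selenof, which binds a glycoprotein folding sensor, measured 83.7, 79.7 and 94.8 FPKM in control and 109.9, 95.6 and 106.5 FPKM in TPN. The highest control and the lowest TPN rat were nearly level (log2 difference 0.27, SE 0.17, limma adjusted p = 0.603). Selenot, another protein of that compartment, had means of 68.03 ± 2.19 FPKM in the controls and 70.7 ± 9.58 FPKM in the TPN rats (SD, n = 3), with overlap.

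Txnrd3, a thioredoxin-glutathione reductase best known from testis, measured 3.49, 2.49 and 2.42 FPKM in control and 1.16, 2.32 and 0.815 FPKM in TPN (log2 difference -0.68, SE 0.24, limma adjusted p = 0.358). Selenom, an endoplasmic reticulum protein, measured 3.39, 4.46 and 3.10 FPKM in control and 2.93, 2.198 and 1.52 FPKM in TPN (log2 difference -0.54, SE 0.20, limma adjusted p = 0.378). In both, the nearest rats of the groups differed little. Selenoi, an enzyme of phosphatidylethanolamine synthesis, measured 29.1, 14.7 and 24.4 FPKM in control and 14.1, 18.8 and 14.4 FPKM in TPN, where control 2 lay among the TPN rats. Selenoo had means of 27.05 ± 2.54 FPKM in the controls and 22.7 ± 2.54 FPKM in the TPN rats, Selenon 5.92 ± 0.877 and 5.74 ± 1.62, and Gpx2, the peroxidase of gut epithelium, 2.44 ± 0.748 and 2.46 ± 0.851 (SD, n = 3), all with overlap.

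**Figure D4:**
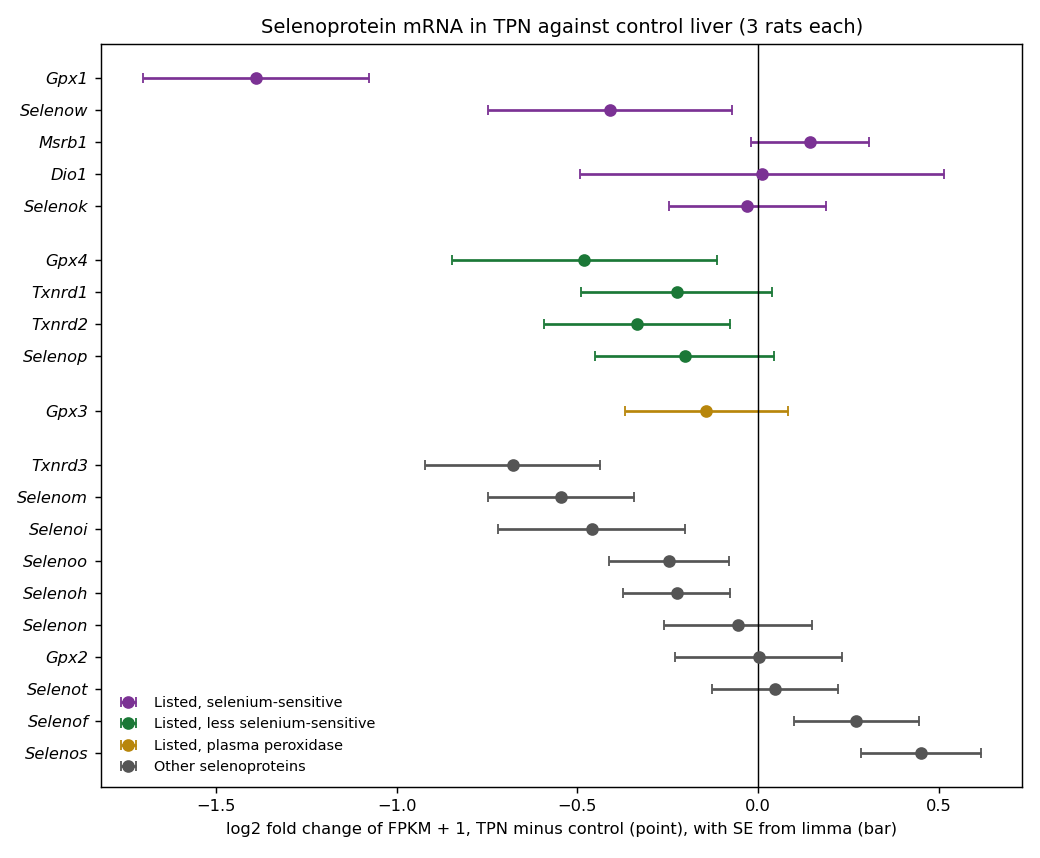
Points show the fitted difference between TPN and control on the log2(FPKM + 1) scale, with bars for the standard error from limma, for the 10 listed selenoprotein genes by selenium sensitivity and for the 10 other selenoprotein genes tested. Gpx1 at -1.39 stands left of all others, which lie between -0.68 for Txnrd3 and 0.45 for Selenos.

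The genes that make and insert selenocysteine were near their control levels in most cases. Of 12 measured genes 5 were negative and 7 positive, with a median of 0.013, none passed limma's adjusted p of 0.05 and 2 had an unadjusted p under 0.05. The median ran from -0.090 without control 2 to 0.11 without TPN 1, and was also negative without TPN 3 (-0.047). Secisbp2l, a paralog of the SECIS-binding protein, measured 21.03, 15.9 and 17.3 FPKM in control and 11.7, 12.6 and 13.7 FPKM in TPN. All TPN rats lay below the controls (log2 difference -0.47, SE 0.16, limma adjusted p = 0.347). Secisbp2 itself had means of 3.72 ± 0.746 FPKM in the controls and 4.68 ± 0.962 FPKM in the TPN rats (SD, n = 3), with overlap.

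Ncl, nucleolin, which binds some selenoprotein mRNAs, measured 73.9, 70.2 and 78.8 FPKM in control and 90.2, 94.4 and 121 FPKM in TPN. All TPN rats lay above the controls (log2 difference 0.44, SE 0.19, limma adjusted p = 0.428). Eefsec, the elongation factor, had means of 7.37 ± 1.02 FPKM in the controls and 7.28 ± 1.76 FPKM in the TPN rats (SD, n = 3). Sepsecs and Pstk, the enzymes that turn serine on the tRNA into selenocysteine, measured 21.2 ± 2.33 and 19.97 ± 4.24 FPKM, and 2.29 ± 0.368 and 2.303 ± 0.255 FPKM, in control and TPN. Trnau1ap, which binds the selenocysteine tRNA, measured 5.104 ± 0.757 and 4.67 ± 0.269 FPKM. None of these 4 separated the groups. Sars, the seryl-tRNA synthetase that charges that tRNA with serine, measured 31.7, 27.4 and 27.7 FPKM in control and 29.6, 47.9 and 39.5 FPKM in TPN, with TPN 1 among the controls (log2 difference 0.39, SE 0.21, limma adjusted p = 0.518). Sephs1, Eif4a3, Celf1 and Rpl30 also overlapped between the groups, with log2 differences of 0.015, 0.20, 0.070 and -0.17. Rpl30 ranged from 44.6 to 206 FPKM among the controls alone.

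Genes of selenium supply and recycling formed a list in which 8 of 9 tested genes were negative (median -0.76) and 3 were lower without overlap. Inmt is counted in the 8 and in the 3, and its mean reached 1 FPKM only through control 3. None passed limma's adjusted p of 0.05 and 2 had an unadjusted p under 0.05. Without control 3, where Inmt was not tested, 7 of 8 genes were negative and the median was -0.45. Without TPN 1, 6 of 9 were negative and the median was -0.36. Scly, selenocysteine lyase, which frees selenium for reuse, measured 32.97, 16.1 and 35.3 FPKM in control and 8.31, 16.8 and 25.2 FPKM in TPN. Control 2 lay among the TPN rats (log2 difference -0.76, SE 0.44, limma adjusted p = 0.566). Selenbp1, a selenium-binding protein, measured 46.5, 26.8 and 37.01 FPKM in control and 8.91, 17.9 and 34.02 FPKM in TPN, with TPN 3 within the controls (log2 difference -0.98, SE 0.45, limma adjusted p = 0.474).

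Cth, a transsulfuration enzyme that also acts on selenium analogues, measured 367, 134 and 163 FPKM in control and 87.6, 72.2 and 56.4 FPKM in TPN. All TPN rats were below all controls (log2 difference -1.48, SE 0.38, limma adjusted p = 0.214). Gnmt, a glycine methyltransferase of the methionine cycle, measured 78.9, 74.01 and 84.99 FPKM in control and 14.6, 20.9 and 62.4 FPKM in TPN, with TPN 3 near the controls (log2 difference -1.52, SE 0.48, limma adjusted p = 0.325). Inmt, a methyltransferase that acts on selenium compounds, was at or under 0.532 FPKM in 5 rats and at 5.68 FPKM in control 3.

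Relatives of the selenoproteins that use cysteine in place of selenocysteine made up a further list. All 5 tested members of it were negative, with a median of -0.37, 1 was lower without overlap, none passed limma's adjusted p of 0.05, and 1 had an unadjusted p under 0.05. Msrb2, the mitochondrial relative of Msrb1, measured 14.05, 14.1 and 17.0 FPKM in control and 9.69, 12.9 and 11.8 FPKM in TPN, without overlap (limma adjusted p = 0.463). Msra, which repairs the other form of oxidised methionine, measured 26.9, 15.1 and 25.3 FPKM in control and 8.24, 13.3 and 24.4 FPKM in TPN, with overlap. Gpx7 had means of 2.99 ± 0.518 FPKM in the controls and 2.01 ± 0.416 FPKM in the TPN rats (SD, n = 3, limma adjusted p = 0.424).

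Among partners of the reductases and other antioxidant enzymes, 13 of 17 were negative (median -0.15), 2 were lower and 1 higher without overlap, none passed limma's adjusted p of 0.05 and 2 had an unadjusted p under 0.05. The median ran from -0.28 without TPN 3 to -0.055 without TPN 1, and was also under 0.1 in size without control 1 or control 3 (-0.068 and -0.075). Sod1, which makes the hydrogen peroxide that Gpx1 removes, measured 646, 673 and 633 FPKM in control and 331, 435 and 496 FPKM in TPN (log2 difference -0.65, SE 0.23, limma adjusted p = 0.352). All TPN rats lay below the controls. Cat, catalase, which also removes hydrogen peroxide, measured 885, 528 and 949.5 FPKM in control and 172, 485 and 559 FPKM in TPN, where TPN 3 exceeded control 2 (limma adjusted p = 0.443). Prdx4, a peroxiredoxin of the endoplasmic reticulum, had means of 98.4 ± 15.0 FPKM in the controls and 69.5 ± 13.05 FPKM in the TPN rats (SD, n = 3), without overlap. Glrx2, a mitochondrial glutaredoxin, was the gene higher without overlap, with 23.4 ± 4.04 and 30.4 ± 0.683 FPKM. Sod2 measured 51.5, 49.6 and 52.2 FPKM in control and 112, 50.7 and 85.1 FPKM in TPN.

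Txnrd1 is a target of NRF2, and the other listed targets did not share 1 direction. Of 15 tested 11 were negative (median -0.18), 2 were lower and 2 higher without overlap, none passed limma's adjusted p of 0.05 and 3 had an unadjusted p under 0.05. The median was -0.35 without control 2 and ran from -0.36 without TPN 3 to -0.125 without TPN 2. Nqo1, a quinone reductase, measured 10.6, 17.6 and 28.02 FPKM in control and 33.9, 48.2 and 47.1 FPKM in TPN. Every TPN rat lay above the controls (log2 difference 1.24, SE 0.33, limma adjusted p = 0.231). Osgin1, a growth inhibitor, measured 182, 72.7 and 85.01 FPKM in control and 48.3, 32.5 and 52.6 FPKM in TPN (log2 difference -1.24, SE 0.36, limma adjusted p = 0.275), and Ephx1, an epoxide hydrolase, 672, 315 and 572 FPKM in control and 42.5, 212 and 299 FPKM in TPN (limma adjusted p = 0.424). Hmox1, heme oxygenase, passed limma's threshold only where control 2 was left out, with or without TPN 1. It measured 97.8 FPKM in control 2 against 14.02 and 14.5 FPKM in the other controls and 37.4 to 59.9 FPKM in TPN.

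Dio1 responds to thyroid hormone and acts on it, and other genes of that hormone's handling in liver were set beside it. Of 13 tested 7 were negative and 6 positive (median -0.16), 4 were lower and 2 higher without overlap, none passed limma's adjusted p of 0.05 and 6 had an unadjusted p under 0.05. The median changed sign without TPN 1, to 0.33, and was -0.077 without control 3, -0.25 without control 2 and -0.29 without TPN 2. Slc16a10, a thyroid hormone transporter, measured 8.71, 7.64 and 9.74 FPKM in control and 4.79, 3.27 and 5.06 FPKM in TPN (log2 difference -0.86, SE 0.18, limma adjusted p = 0.157). Every TPN rat lay below the controls. The 2 plasma carriers of the hormone lay on opposite sides. Ttr, transthyretin, measured 8528, 4225 and 7615 FPKM in control and 1552, 3140.05 and 2830 FPKM in TPN (limma adjusted p = 0.242). Serpina7, thyroxine-binding globulin, measured 2.52, 23.3 and 3.86 FPKM in control and 52.8, 75.6 and 33.5 FPKM in TPN (limma adjusted p = 0.262).

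Thrsp, a classic thyroid hormone target, measured 67.7 FPKM in TPN 1 and 493 and 616 FPKM in TPN 2 and TPN 3, against 208, 477 and 717 in the controls. Its TPN rats were thus in the same order as those of Dio1. TPN 1 was the lowest TPN rat in 49.3% of all features. The controls differed in order, with control 1 lowest for Thrsp and control 2 lowest for Dio1. Thrb, the main thyroid hormone receptor of liver, had means of 6.41 ± 0.891 FPKM in the controls and 5.703 ± 1.29 FPKM in the TPN rats (SD, n = 3), with overlap. With control 2 and TPN 1 both left out, Ttr and Serpina7 passed limma's threshold. Serpina7 also passed without control 2 alone.

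The pattern of single genes over the 6 rats was compared by Pearson's r of log2(FPKM + 1), as a description over rats that fall into 2 groups. Among the 45 pairs of the 10 genes, 35 were positive and the median r was 0.33. The most alike were Txnrd1 and Selenop (r = 0.93, n = 6) and Gpx4 and Txnrd2 (r = 0.91, n = 6), and the least alike were Gpx3 and Selenok (r = -0.85, n = 6). Gpx1 with Dio1 gave 0.17 and Gpx1 with Msrb1 -0.34. Among the 6539 features whose mean reached 5 FPKM, those most like Gpx1 were Rmdn2, Bst2 and Sh2d4a, with r from 0.996 to 0.997. Those most like Dio1 were Serpina4, Tmem106b and Nme4, with r from 0.990 to 0.994. 

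Several values carry limits of counting. RefSeq lists at least 6 pseudogenes of Selenok, 4 of Gpx4 and 1 of Selenow, with which reads could be shared, so these levels are uncertain. Selenop overlaps Ccdc152 and Txnrd1 overlaps 4 other genes, and the sources do not state whether counting used strand. For Gpx1 and Dio1, no overlapping gene and no pseudogene named after them was counted. Whether their reads were shared with pseudogenes under other names was not tested. The table holds no counts and the depth of each library is unknown, so the spread between rats is the error used throughout.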

How the data were processed

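RNA-seq of liver from 3 control and 3 TPN rats was used, grouped by sample titles. Per the submitters' processing notes, Bowtie 0.12.2, Cufflinks and the build Rnor_6.0 were used, with roles and order left unstated. One FPKM table deposited by the authors covers all rats, and its columns were matched to rats by name, with 0 left over. Ratios of values under 0.3 FPKM showed no steps of whole reads (at most 0.853% in 1 bin of 0.01 on the log2 scale), so counts were not recovered and depth is unknown. FPKM summed to 509630.0 to 544670.0 per rat.

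The 11362 features whose mean reached 1 FPKM were tested as log2(FPKM + 1) in R 4.3.3 by limma 3.58.1 and statmod 1.5.0, with group as the only term, trended and robust moderation, 2-sided p and Benjamini-Hochberg adjustment at 0.05. An exact test on 3 against 3 cannot go under 0.10. A log2 difference on this scale understates changes of low genes. The fit was tested on simulated data. The members and lists were chosen with earlier results of these data known. All selenoprotein and synthesis genes could be named, and from other lists up to 6 by unadjusted p; Hmox1, Thrsp, Thrb and the lineage markers were added after their values were seen. Of 197 list entries 182 matched. Same-numbered rats were not paired, since their deviations correlated at -0.21, -0.14 and 0.32. Alternatives were pseudocounts of 0.1 and 0.01, other filters, scalings and moderation, sample weights, a replicate block, each rat left out, and, chosen after seeing the data, control 2 and TPN 1 left out together. Sequences are from RefSeq (GRCr8). Figures were drawn with matplotlib 3.10.9.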

Additional observations from a re-analysis of the deposited data

How the results depend on the processing

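Gpx1 stayed negative under all 17 alternatives, from -1.70 to -1.11 on the log2 scale, and so did Gpx4, Txnrd1, Txnrd2, Selenop and Selenow, while Msrb1 stayed positive. The sign of Dio1 changed in 3, of Selenok in 4 and of Gpx3 in 4 of the 17. The number of the 10 genes that were negative ran from 7 to 9 with 1 rat left out.

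The count of 28 features past the threshold depended on the setting. It was 18 and 5 with pseudocounts of 0.1 and 0.01, 0 without a filter (1898 at an unadjusted p under 0.05), 6 with a minimum mean of 5 FPKM, 0 after median-ratio scaling (1579 at an unadjusted p under 0.05) or quantile normalisation (1591), 8 without trend and robust settings, 299 with sample weights, 121 with control 2 and TPN 1 both left out, and 0 to 46 with 1 rat left out. Of the 10 genes, and of the 6 sensitive ones, 1 was past the threshold (Gpx1) with sample weights and with control 2 and TPN 1 both left out. The genes were chosen on this comparison, so nothing is read from that count. With sample weights 1 supply gene, Gnmt, and 1 thyroid gene, Slc16a10, passed. With control 2 and TPN 1 both left out, 1 NRF2 target, Hmox1, and 2 thyroid genes passed, and with 1 rat left out 0 to 1 in each of those lists (Hmox1 and Serpina7, both without control 2). Of the 12 synthesis genes, 3 to 8 were negative with 1 rat left out. Only 2 cysteine relatives reached a mean of 5 FPKM, both negative. The cause was not tested for the other changes.

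The replicate number as a block gave 58 features, and 0 genes passed among the lists of selenoproteins, synthesis, supply, cysteine relatives, thioredoxin, NRF2 and thyroid genes. Marker lists were not counted under it, and the labels do not pair the rats.

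Some genes that did not pass changed sign. With 1 rat left out, Selenon ran from -0.24 to 0.078, Selenot from -0.061 to 0.11, Gpx2 from -0.19 to 0.15, Sepsecs from -0.23 to 0.070, Celf1 from -0.045 to 0.16, Rpl30 from -0.73 to 0.36, Eefsec from -0.19 to 0.096, Pstk from -0.083 to 0.076, Sephs1 from -0.20 to 0.22 and Ahcy from -0.75 to 0.027. With sample weights the values were -0.053 for Selenot, -0.091 for Gpx2, -0.062 for Pstk, -0.069 for Sephs1 and 0.027 for Msrb3. With control 2 and TPN 1 both left out they were -0.036 for Gpx2 and -0.037 for Pstk. Depth is unknown, so no limit from counting can be given.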
